A study of Ambystoma mexicanum with 12 samples.

Results

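The genes described here are bone morphogenetic protein 2 and 3 inhibitors of its pathway in the axolotl (Ambystoma mexicanum). The ligand is BMP2.2 (identifier AMEX60DD035718). The inhibitors are BAMBI (AMEX60DD021836), SMAD6 (AMEX60DD003396) and SMAD7 (AMEX60DD041727). They were chosen by name with earlier results of these data known, and they are 4 of the 99088 genes counted. All 4 were counted in every library and passed the filter on low counts. Total RNA was sequenced from 12 libraries after removal of ribosomal RNA. The juvenile limb group holds the tissue removed at amputation from 5 axolotls aged 8 months, and the blastema group holds the tissue that had regrown on these animals 10 days later. The aged limb group holds limb tissue of 2 axolotls aged 8 years, which formed no blastema. No samples were taken from these 2 animals after amputation. No transgene is named. The animals were sedated with benzocaine before amputation, and they belonged to a captive colony descended from wild axolotls of Xochimilco. The limb taken is given as the right forelimb, the inferior limbs or the posterior leg in different places, so it is not settled here.

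BMP2 is a secreted ligand of the TGF-β superfamily. It binds type I and type II receptor kinases at the cell surface, which phosphorylate SMAD proteins that then enter the nucleus with SMAD4 and regulate target genes. BAMBI is a pseudoreceptor that resembles a type I receptor but lacks the kinase, and it damps signalling at the membrane. SMAD6 and SMAD7 are inhibitory SMADs inside the cell, SMAD6 acting mainly on the BMP branch and SMAD7 on both the BMP and the TGF-β branch. In other vertebrates the genes of all 3 inhibitors are themselves targets of the pathway and so form part of its negative feedback. In limbs BMP signalling is known for its roles in digit patterning, cartilage and bone formation and cell death.

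The name BMP2.2 marks it as 1 of several genes annotated as BMP2, and counts on other copies were not analysed here. The settings used to count reads that match several places are not given in the sources used here, so the split of reads between copies is uncertain. No coordinates or sequences are given, because no annotation of the build used for counting was at hand.

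The libraries held between 12975883 and 20663627 counts on genes. Levels are counts scaled by library size (CPM), on a common scale set by edgeR's TMM method over the 12 libraries. A level depends on the length of the gene, so levels are compared between libraries and never between genes. Marker genes were read to describe the tissue of each group. Their names come from the study's tables, which hold genes it called on these libraries. Differences between groups in these genes are therefore no independent check of the labels. Summed markers of the blastema, 8 genes that include KAZALD1.2, TNC and SALL4, reached 935 to 2507 CPM in the blastemas, 83.3 to 167 CPM in the juvenile limbs and 75.5 to 101 CPM in the aged limbs. The largest part of that sum was TNC, at 693 to 2222 CPM in the blastemas. Of the 8 genes, 7 were higher in every blastema than in every juvenile limb. The higher aged limb reached the range of the blastemas for PROD1 (20.9 against 10.6 to 50.5 CPM) and PCLAF (36.4 against 32.6 to 53.4 CPM). Summed markers of skeletal muscle (14 genes) were at 68.2 to 103 CPM in the blastemas, where 3 to 5 of them had no count in a given library, and at 4739 to 24163 CPM in the juvenile limbs. In the blastemas that sum was mostly PYGM, at 65.4 to 99.4 CPM against 220 to 706 CPM in the juvenile limbs. Keratinocyte markers (10 genes) were at 1874 to 4694 CPM in the blastemas and at 5993 to 17397 CPM in the juvenile limbs. Endothelial markers (3 genes) were at 29.8 to 189 CPM against 203 to 347 CPM, immune markers (9 genes) at 39.7 to 91.6 CPM against 98.4 to 188 CPM, and Schwann cell markers (3 genes) at 8.91 to 16.4 CPM against 54.0 to 173 CPM. The immune list went both ways. Of its 9 genes, 4 were lower in every blastema than in every juvenile limb (CTSS was at 1.02 to 6.67 CPM against 38.4 to 132 CPM). The complement receptor C5AR1 was higher, at 2.502 to 5.43 CPM against 1.03 to 2.05 CPM, and the macrophage receptor MARCO lay at 29.3 to 74.7 CPM against 9.25 to 34.2 CPM. Summed bone and cartilage markers (5 genes) overlapped, at 71.7 to 573 CPM in the blastemas and 71.5 to 140 CPM in the juvenile limbs, and that sum was mostly CTSK, the osteoclast protease, at 69.5 to 569 CPM against 31.9 to 92.4 CPM. The other 4 genes of this list were lower in every blastema, where BGLAP and IFITM5.1 had no count. The aged limbs were also below every juvenile limb for BGLAP (0 to 0.26 against 2.90 to 9.72 CPM) and PHOSPHO1 (1.34 to 2.97 against 9.55 to 18.9 CPM). They had no count of IFITM5.1, while their CYTL1 (7.16 to 23.5 CPM) and CTSK (44.5 to 49.1 CPM) lay inside the juvenile range. The part of these differences in the comparisons with aged limbs was not tested. Summed markers of muscle, keratinocytes, endothelium, immune cells and Schwann cells and the 4 bone and cartilage genes thus stood apart between blastemas and juvenile limbs, and their part in the results was not tested. In bulk tissue, fewer cells of a type and less RNA per cell cannot be told apart.

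The first comparison asked which of the ligand and its inhibitors changed between limb and blastema of the juvenile animals. The ligand BMP2.2 and the inhibitors BAMBI and SMAD7 were higher in blastemas. BMP2.2 and BAMBI were each above 5 times their limb level, whereas SMAD7 was a little above 2 times. SMAD6 was higher on average but did not pass the test. Thus 3 of the 4 genes were called higher, where 1.86% of the 19961 genes tested were. Their groups did not overlap, which held in that direction for 3.24% of all genes tested. The median log2 fold change of the 4 genes was 1.87, and that of all genes tested was -0.02. The study had named BMP2, BAMBI, SMAD6 and SMAD7 as upregulated in blastemas. It took them from genes called both in these libraries and in published distal and proximal blastemas. Those came from the d/d strain and were taken at a later time after amputation. These shares and the median are therefore not independent evidence about the 4 genes.

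The level of BMP2.2 was 9.89, 16.8, 14.98, 15.16 and 7.67 CPM in blastemas 2, 3, 5, 6 and 8. In the juvenile limbs with the same numbers it was 2.42, 2.08, 2.69, 1.43 and 3.42 CPM. The groups did not overlap, and the lowest blastema, number 8, was above the highest limb, which came from the same animal. The mean level was 12.9 ± 3.90 CPM (SD, n = 5) in blastemas and 2.41 ± 0.74 CPM (SD, n = 5) in juvenile limbs. In edgeR's quasi-likelihood F test, with p-values adjusted by Benjamini-Hochberg over the whole table, the log2 fold change was 2.42 ± 0.30 (SE), a 5.34-fold rise, with an adjusted p of 0.000341. These values rest on 101 to 364 counts in a blastema and 23 to 53 counts in a juvenile limb.

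BAMBI, the pseudoreceptor, was at 38.2, 38.3, 28.0, 39.8 and 28.6 CPM in blastemas 2, 3, 5, 6 and 8. It was at 7.27, 6.25, 3.03, 9.13 and 4.77 CPM in the juvenile limbs of the same numbers. Blastemas 5 and 8 formed a lower pair, and limbs 5 and 8 were also the lowest of the limbs. The groups did not overlap, with means of 34.6 ± 5.78 CPM and 6.09 ± 2.33 CPM (SD, n = 5 each). The log2 fold change was 2.497 ± 0.28 (SE), or 5.65-fold, with an adjusted p of 0.000186 by the same edgeR test.

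SMAD7 was at 13.4, 14.8, 11.3, 9.93 and 12.21 CPM in blastemas 2, 3, 5, 6 and 8. It was at 5.54, 3.75, 6.27, 5.22 and 6.90 CPM in the juvenile limbs. The groups did not overlap, and the spread within each was the smallest of the 4 genes, with a coefficient of variation of 15.3% in blastemas and 21.6% in juvenile limbs. The log2 fold change was 1.15 ± 0.22 (SE), or 2.22-fold, and the adjusted p was 0.00566 with edgeR. Fitting all 12 libraries together left the change at 1.16 with an adjusted p of 0.0707, which ended the call.

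SMAD6, the inhibitory SMAD of the BMP branch, was at 11.6, 6.82, 6.70, 6.75 and 3.05 CPM in blastemas 2, 3, 5, 6 and 8. It was at 2.18, 3.38, 2.83, 1.24 and 4.32 CPM in the juvenile limbs. The groups overlapped through number 8, whose blastema was the lowest and whose limb was the highest. The log2 fold change was 1.32 ± 0.40 (SE) with an adjusted p of 0.0605 in edgeR, so SMAD6 was not called. Its coefficient of variation was 43.3% in blastemas and 41.9% in juvenile limbs, where counting error alone averaged 10.9% and 15.4% per library. Without blastema 8 the log2 fold change was 1.51 with an adjusted p of 0.0261, and without juvenile limb 8 it was 1.57 with an adjusted p of 0.0469. The other 8 fits with a single library left out gave no call, at adjusted p-values up to 0.143 in edgeR. Of 7 other alternatives 5 gave no call either, among them edgeR with the animal as a block, at an adjusted p of 0.131. DESeq2 on the same 10 libraries gave 1.33 with an adjusted p of 0.0241, which is a call. DESeq2 called 4.17% of all 63474 genes with a count there. This base includes any gene that DESeq2 left without an adjusted p, so the share is not comparable with those of edgeR.

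**Figure D1:**
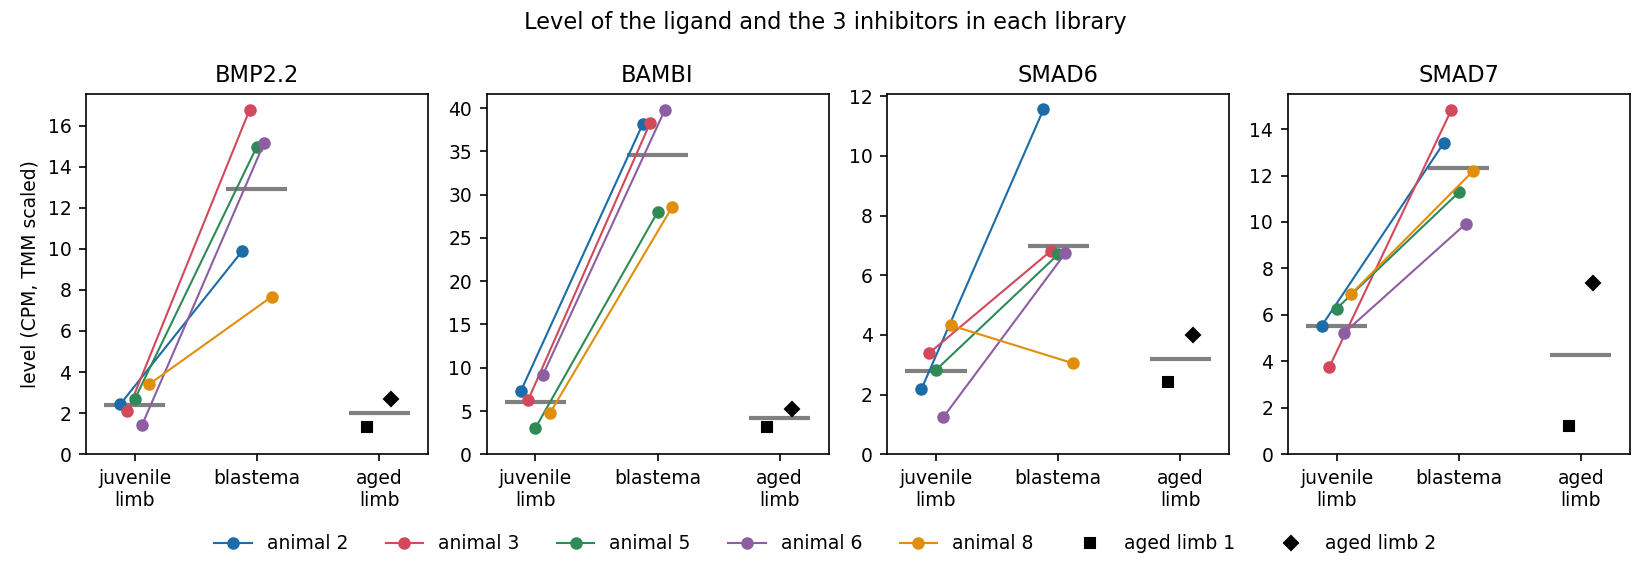
Level of BMP2.2, BAMBI, SMAD6 and SMAD7 (CPM, linear axes from 0, with a scale of its own for each gene) in the 12 libraries. Coloured lines join the juvenile limb and the blastema that share a number, black symbols are the aged limbs and grey bars are group means. Every line climbs except that of SMAD6 in animal 8, which falls from 4.32 to 3.05 CPM.

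Whether ligand and inhibitors were high together was examined within animals. The study took blastemas and juvenile limbs from the same 5 animals, and a shared number was read as the same animal. BMP2.2 was higher in the blastema than in the limb in 5 of 5 animals, by 4.08, 8.05, 5.57, 10.6 and 2.24 times in animals 2, 3, 5, 6 and 8. BAMBI was higher in 5 of 5 animals, by 5.25, 6.13, 9.23, 4.36 and 5.99 times. SMAD7 was higher in 5 of 5 animals, by 2.42, 3.96, 1.80, 1.90 and 1.77 times. SMAD6 was higher in 4 of 5 animals, by 5.31, 2.02, 2.37 and 5.43 times in animals 2, 3, 5 and 6, and in animal 8 the ratio was 0.71. In 4 of the 5 animals, then, the ligand and all 3 inhibitors were higher in the blastema.

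The animals did not fall in the same order for each gene. BMP2.2 and SMAD6 had their largest ratio in animal 6, whose limb held the lowest level of both among the juvenile limbs, and their smallest in animal 8. BAMBI had its largest ratio in animal 5 and its smallest in animal 6. SMAD7 had its largest in animal 3 and its smallest in animal 8. The log2 ratio of blastema to limb averaged 2.42 ± 0.87 for BMP2.2, 2.58 ± 0.40 for BAMBI, 1.32 ± 1.21 for SMAD6 and 1.17 ± 0.49 for SMAD7 (SD, n = 5 animals). BAMBI thus varied least between animals relative to its mean, and SMAD6 most. With 5 pairs no correlation between genes was computed.

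**Figure D2:**
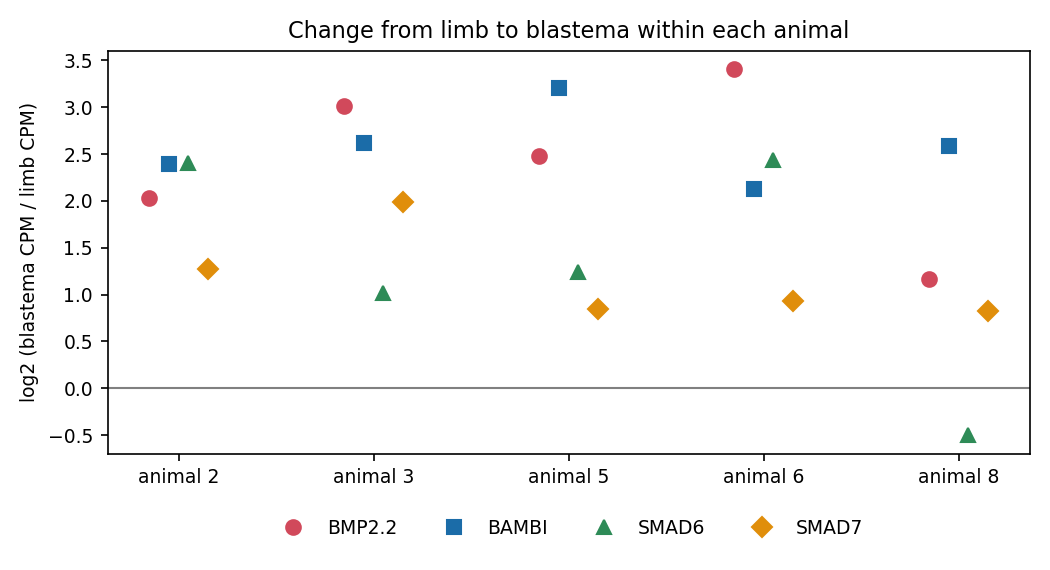
Log2 ratio of the CPM in the blastema to the CPM in the limb of the same number, for the 4 genes (symbols) in the 5 animals (columns), with 0 marking no difference. All symbols lie above 0 except that of SMAD6 in animal 8, at -0.50, and BMP2.2 spans 1.16 in animal 8 to 3.41 in animal 6.

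A further comparison asked whether an inhibitor moved by the same factor as the ligand. For this the count of each inhibitor was divided by the count of BMP2.2 in the same library, which needs no scaling between libraries. The ratio itself also reflects the lengths of the genes, so only its change between groups is read. Groups were compared by a two-sided exact permutation test on the log2 ratio with 0.5 added to each count. It took the libraries as independent and did not use the pairing within animals. Over the 9 ratios tested, p-values were adjusted by Benjamini-Hochberg, and none passed an adjusted p of 0.05. Ratios compared with the aged limbs could not pass, because this test cannot give a p below 0.0952 there.

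BAMBI counts per BMP2.2 count were 3.86, 2.29, 1.87, 2.62 and 3.73 in blastemas 2, 3, 5, 6 and 8. In the juvenile limbs they were 3.00, 3.00, 1.13, 6.39 and 1.40. The blastemas lay inside the range of the limbs, and the mean log2 ratio differed by 0.17 with a 95% interval of -0.96 to 1.34 (exact permutation p = 0.722, adjusted p = 0.812). The interval is wide enough that equal factors were not shown either.

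SMAD7 counts per BMP2.2 count were 1.36, 0.88, 0.75, 0.66 and 1.59 in the blastemas and 2.29, 1.80, 2.33, 3.65 and 2.02 in the juvenile limbs. The groups did not overlap, and the ratio was lower in the blastema in 5 of 5 animals. The mean log2 ratio was lower by 1.24 in blastemas, with a 95% interval of -1.92 to -0.48. The exact permutation p was 0.00794, the smallest that 5 against 5 libraries can give, and the adjusted p was 0.0714. The difference therefore did not pass the correction. Among the 9 ratios corrected together, a single ratio at that smallest p could not pass, so the correction does not settle it.

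SMAD6 counts per BMP2.2 count were 1.17, 0.41, 0.45, 0.44 and 0.40 in the blastemas and 0.90, 1.62, 1.05, 0.87 and 1.26 in the juvenile limbs. Blastema 2 was the only blastema above the lowest limb, and the other 4 lay below every limb. The mean log2 ratio was lower by 1.09 in blastemas, with a 95% interval of -1.74 to -0.30, an exact permutation p of 0.0317 and an adjusted p of 0.143. In the animals compared with themselves, the SMAD6 ratio was lower in the blastema in 4 of 5.

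**Figure D3:**
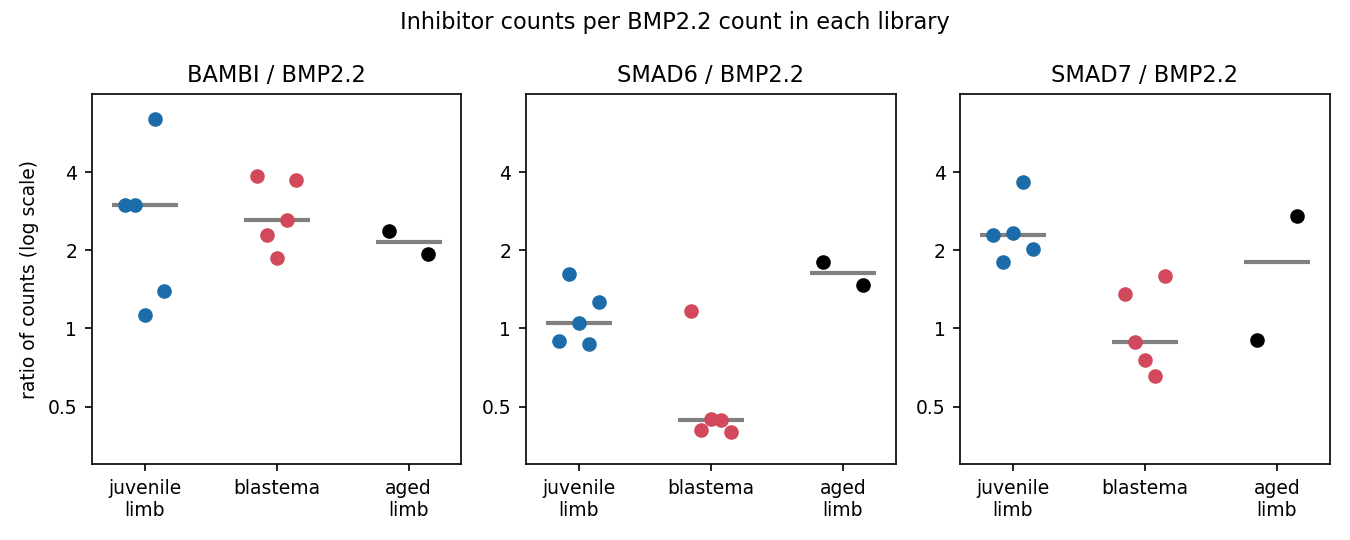
Counts of BAMBI, SMAD6 and SMAD7 divided by the counts of BMP2.2 in the same library (log scale), by group, with 1 point per library and grey bars at the group medians. For SMAD7 the 5 blastemas sit between 0.66 and 1.59 and the 5 juvenile limbs between 1.80 and 3.65, while for BAMBI the blastemas lie within the range of the limbs.

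The comparison of aged with juvenile limbs asked whether the 4 genes differ in limbs of animals that did not regenerate. None of the 4 was called, and the background was 0.103% of the 24316 genes tested, in either direction. None of the 4 reached an unadjusted p under 0.05 in edgeR either (0 of 4, against 7.48% of all genes tested). DESeq2 called 0 of 4, where it called 0.491% of all genes with a count. With 2 aged limbs the intervals were wide, so equal levels were not shown. They are normal approximations and too narrow with so few libraries.

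BMP2.2 was at 1.34 and 2.71 CPM in aged limbs 1 and 2, against 1.43 to 3.42 CPM in the juvenile limbs. The log2 fold change was -0.23, with a 95% interval of -1.201 to 0.73, and without aged limb 1 it was 0.19. BAMBI was at 3.16 and 5.23 CPM, inside the juvenile range of 3.03 to 9.13 CPM. Its log2 fold change was -0.53, with an interval of -1.42 to 0.37.

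SMAD6 was at 2.41 and 4.00 CPM in aged limbs 1 and 2, inside the juvenile range of 1.24 to 4.32 CPM. Its log2 fold change was 0.22 (95% interval -0.77 to 1.21), and -0.16 without aged limb 2. SMAD7 differed most between the 2 aged animals, at 1.203 CPM (27 counts) in aged limb 1 and 7.36 CPM (114 counts) in aged limb 2. The first of these was the lowest level among the 12 libraries, and the second lay above every juvenile limb. Its log2 fold change was -0.36 (95% interval -1.505 to 0.79), with 0.44 when aged limb 1 was left out and -2.14 when aged limb 2 was left out. The adjusted p-values of the 4 genes in this comparison were 0.965 for BMP2.2, 0.875 for BAMBI, 0.971 for SMAD6 and 0.952 for SMAD7 with edgeR. The 2 aged limbs also differed in muscle markers, which summed to 8770 CPM in aged limb 1 and 1307 CPM in aged limb 2. The part of this difference in the levels of SMAD7 was not tested.

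The count ratios gave no call in the aged limbs. BAMBI per BMP2.2 was 2.37 and 1.93, SMAD6 per BMP2.2 was 1.80 and 1.48, and SMAD7 per BMP2.2 was 0.90 and 2.71 in aged limbs 1 and 2. With 2 against 5 libraries the exact permutation test cannot give a p below 0.0952, and the p-values against juvenile limbs were 0.952, 0.190 and 0.476. SMAD6 per BMP2.2 was higher in both aged limbs than in every blastema, at that smallest p of 0.0952 (adjusted p = 0.286).

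Blastemas and aged limbs were also compared with each other. The aged limbs were not sampled after amputation, so age and regrowth differ together here and cannot be told apart. BMP2.2 and BAMBI were called higher in blastemas, which makes 2 of the 4 genes where 0.439% of the 22076 genes tested were called higher. Their levels did not overlap, with lowest blastemas of 7.67 and 28.0 CPM against highest aged limbs of 2.71 and 5.23 CPM. The log2 fold change was 3.09 ± 0.35 (SE) for BAMBI with an adjusted p of 0.00426 in edgeR. For BMP2.2 it was 2.72 ± 0.48 (SE) with an adjusted p of 0.0308. The call of BMP2.2 was lost without blastema 3, 5 or 6 (adjusted p of 0.0749, 0.0710 and 0.0812) and without aged limb 1 or 2 (0.282 and 0.0533). The call of BAMBI was lost without aged limb 1, at an adjusted p of 0.0520.

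SMAD6 and SMAD7 were not called between blastemas and aged limbs. SMAD6 had a log2 fold change of 1.16 ± 0.52 (SE) with an adjusted p of 0.366 in edgeR, and its groups overlapped. SMAD7 had 1.57 ± 0.60 (SE) with an adjusted p of 0.284, although its lowest blastema, at 9.93 CPM, was above the higher aged limb at 7.36 CPM. Groups that do not overlap in this direction were found for 8.8% of all genes tested. Leaving out aged limb 2 raised the log2 fold change of SMAD7 to 3.36 with an adjusted p of 0.0155, and leaving out aged limb 1 lowered it to 0.75. Without the filter on low counts it was called at 1.55, with an adjusted p of 0.0256. This comparison shares its blastemas and aged limbs with those above, so it is not a further sample.

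In order of mean level, BMP2.2, BAMBI and SMAD7 stood highest in blastemas, then juvenile limbs, then aged limbs, and SMAD6 stood highest in blastemas, then aged limbs, then juvenile limbs. The means of the aged limbs were 2.02 CPM for BMP2.2, 4.195 CPM for BAMBI, 3.20 CPM for SMAD6 and 4.28 CPM for SMAD7. Juvenile and aged limbs, the neighbours in each order, did not differ beyond their spread for any of the 4 genes. Blastemas and aged limbs were not called different for SMAD6 or SMAD7 either. For SMAD7 their levels did not overlap, as given above.

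Other genes of the TGF-β and BMP pathways were read from a list of 14. The names come from tables of genes that the study had called on these libraries. The list is therefore not independent evidence, either of direction or of being called. Of its 13 genes tested between blastemas and juvenile limbs, 7 were called higher and 4 lower, against 1.86% and 5.6% of all genes tested. The median log2 fold change of the 13 was 1.24, also with genes of few counts set at their bound, and that of all genes was -0.02. DESeq2 called all 13, against 4.17% of all genes with a count. The study's calls were also made with DESeq2, so this number was largely set by the choice of the list.

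Among the direct targets of BMP signalling, ID3 and MSX2 were called higher. ID3, an inhibitor of basic helix-loop-helix factors, was at 62.5, 58.7, 69.8, 61.3 and 48.3 CPM in blastemas 2, 3, 5, 6 and 8 and at 20.5 to 35.4 CPM in juvenile limbs. Its log2 fold change was 1.05 ± 0.19 (SE) with an adjusted p of 0.00418 in edgeR. It lay just past the fold threshold and fell to 0.99 without blastema 5 or without juvenile limb 8. MSX2, a homeobox repressor active in limb buds, was at 16.9, 43.9, 20.3, 31.5 and 23.6 CPM in the blastemas and at 3.17 to 6.02 CPM in juvenile limbs, a log2 fold change of 2.66 ± 0.30 (SE) with an adjusted p of 0.000201. Both were higher in the blastema in 5 of 5 animals. DLX6.1, a homeobox gene of limb and jaw development, had 9 to 33 counts in a blastema and 0 to 14 in a juvenile limb. In CPM the groups did not overlap, at 0.88 to 2.38 against 0 to 0.65, as for 3.24% of all genes tested. Its log2 fold change was 2.35 with an adjusted p of 0.0677 in edgeR, so it was not called.

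VENTX.2, named after a target of BMP4 in Xenopus embryos, was left out by the filter in this comparison. All 3 alternative settings that kept it called it higher, at log2 fold changes of 4.04 to 4.23. The adjusted p-values, from edgeR or DESeq2, were 0.0024 to 0.0445. VENTX.2 had 26, 2, 15, 6 and 14 counts in the blastemas, 5 counts in all juvenile limbs together and none in the aged limbs.

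Of the regulators inside the cell, TGIF1.L, a homeobox corepressor that binds SMADs, was at 5.88 to 18.4 CPM in blastemas and 1.09 to 3.55 CPM in juvenile limbs. Its log2 fold change was 2.01 ± 0.40 (SE) with an adjusted p of 0.00744 in edgeR. PMEPA1, a target of TGF-β that holds back receptor-regulated SMADs, was called higher at 1.24 ± 0.35 (SE) with an adjusted p of 0.0483. Its groups overlapped, at 29.0 to 85.4 CPM in blastemas and 14.8 to 35.8 CPM in juvenile limbs. PMEPA1 was higher in the blastema in 4 of 5 animals. With the animal as a block its adjusted p was 0.124, and the call was also lost when any of 7 of the 10 libraries was left out (blastema 2, 3 or 6, or juvenile limb 2, 3, 5 or 6), at adjusted p-values up to 0.105.

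Secreted and matrix modulators went in both directions. FBN2, a fibrillin of the microfibrils that bind latent TGF-β and BMPs, was at 61.1 to 571 CPM in blastemas and 27.6 to 43.4 CPM in juvenile limbs, a log2 fold change of 2.93 ± 0.49 (SE) with an adjusted p of 0.00257 in edgeR. TMEFF1, a membrane protein with follistatin domains that inhibits Nodal signalling in Xenopus, was called higher at 2.24 ± 0.45 (SE). SULF1, a sulfatase that edits heparan sulfate, was called higher at 2.24 ± 0.63 (SE) with an adjusted p of 0.0454. Its groups overlapped, at 6.23 to 110 CPM in blastemas and 6.46 to 18.7 CPM in juvenile limbs. SULF1 was higher in the blastema in 4 of 5 animals. With the animal as a block its adjusted p was 0.196, and the call was lost without any of 7 libraries (blastema 3 or 6, or any juvenile limb), at adjusted p-values up to 0.113. HTRA1, a secreted serine protease that binds TGF-β proteins, was lower, at 0 to 0.55 CPM in blastemas and 0.88 to 5.097 CPM in juvenile limbs, a log2 fold change of -3.54 ± 0.75 (SE) with an adjusted p of 0.0111. FSTL1, a secreted glycoprotein that antagonises BMP4 in mice, had a log2 fold change of 1.10 ± 0.34 (SE) with an adjusted p of 0.0686 and was not called. It passed without blastema 5 (adjusted p = 0.0295) or blastema 8 (adjusted p = 0.0483).

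The ligand and the co-receptors of the list were lower in blastemas. MSTN encodes myostatin, the TGF-β ligand that limits muscle growth, and it had 3 counts over the blastemas, all in blastema 3, against 421 over the juvenile limbs. That is a ratio of 114 between the pooled levels, with a 95% exact counting interval of 38.6 to 553. HJV, a BMP co-receptor that is expressed in skeletal muscle in mammals, had no count in any blastema and 241 over the juvenile limbs, which puts it at least 65.1-fold lower in blastemas against a floor of 3 counts over the 5 blastemas. Floors and intervals on counts cover counting error only. TGFBR3, or betaglycan, was at 2.84 to 7.35 CPM in blastemas and 8.41 to 15.3 CPM in juvenile limbs, a log2 fold change of -1.59 ± 0.31 (SE) with an adjusted p of 0.00646 in edgeR. The muscle markers were lower in every blastema as well, as given above. In the aged limbs MSTN was at 5.75 and 0.19 CPM and HJV at 2.36 and 0.26 CPM in limbs 1 and 2, and in that order the muscle markers were also high and low. In juvenile limbs 6 and 8 the muscle markers summed to 6534 and 24163 CPM. There MSTN was at 5.71 and 4.52 CPM and HJV at 1.43 and 5.94 CPM. The part of muscle in the levels of MSTN and HJV was not tested.

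Between aged and juvenile limbs 0 of the 13 genes tested were called by edgeR, where 0.103% of all genes were. An unadjusted p under 0.05 in edgeR was reached by 3 of them, against 7.48% of all genes tested. DESeq2 called FSTL1 and FBN2, where it called 0.491% of all genes with a count. FSTL1 was at 55.0 and 81.2 CPM in the aged limbs, below all juvenile limbs (160 to 266 CPM), with a log2 fold change of -1.61 and an adjusted p of 0.225 in edgeR. FBN2 was at 6.28 and 14.3 CPM, also below all juvenile limbs, with a log2 fold change of -1.70 and an adjusted p of 0.246. MSX2, not called by DESeq2, was below them too, at 1.43 and 2.58 CPM. Its log2 fold change was -1.08 with an adjusted p of 0.655 in edgeR. Thus 3 of the 13 genes lay below every juvenile limb and 0 above, against 6.34% and 6.02% of all genes tested.

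Between blastemas and aged limbs 2 of the 12 genes tested were called higher and 0 lower, where 0.439% and 1.15% of all genes were. MSTN and HJV were left out by the filter here. MSTN had 3 counts over the blastemas and 132 over the aged limbs, a ratio of 82.6 between pooled levels (95% exact counting interval 27.7 to 406). HJV had 0 against 57, at least 35.7-fold lower in blastemas against the floor of 3 counts. Most of these aged counts were in aged limb 1 (129 for MSTN and 53 for HJV). All 12 genes tested had an unadjusted p under 0.05 in edgeR, against 14.1% of all genes tested. DESeq2 called 10 of them, where it called 2.14% of all genes with a count. The same blastemas gave the calls behind the list, so these shares are not independent evidence. MSX2 had a log2 fold change of 3.81 ± 0.51 (SE) with an adjusted p of 0.00947 in edgeR, and 0.123 without aged limb 1. DLX6.1 had 1 count over the aged limbs and 118 over the blastemas, a ratio of 62.8 between pooled levels with a 95% exact counting interval of 11.1 to 2503. Its adjusted p was 0.0479, and the call was lost without blastema 3, 5, 6 or 8 or without either aged limb, at adjusted p-values up to 0.237, and also in the fit of all 12 libraries, at 0.0533, and with library totals without the 100 highest genes, at 0.0510.

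**Figure D4:**
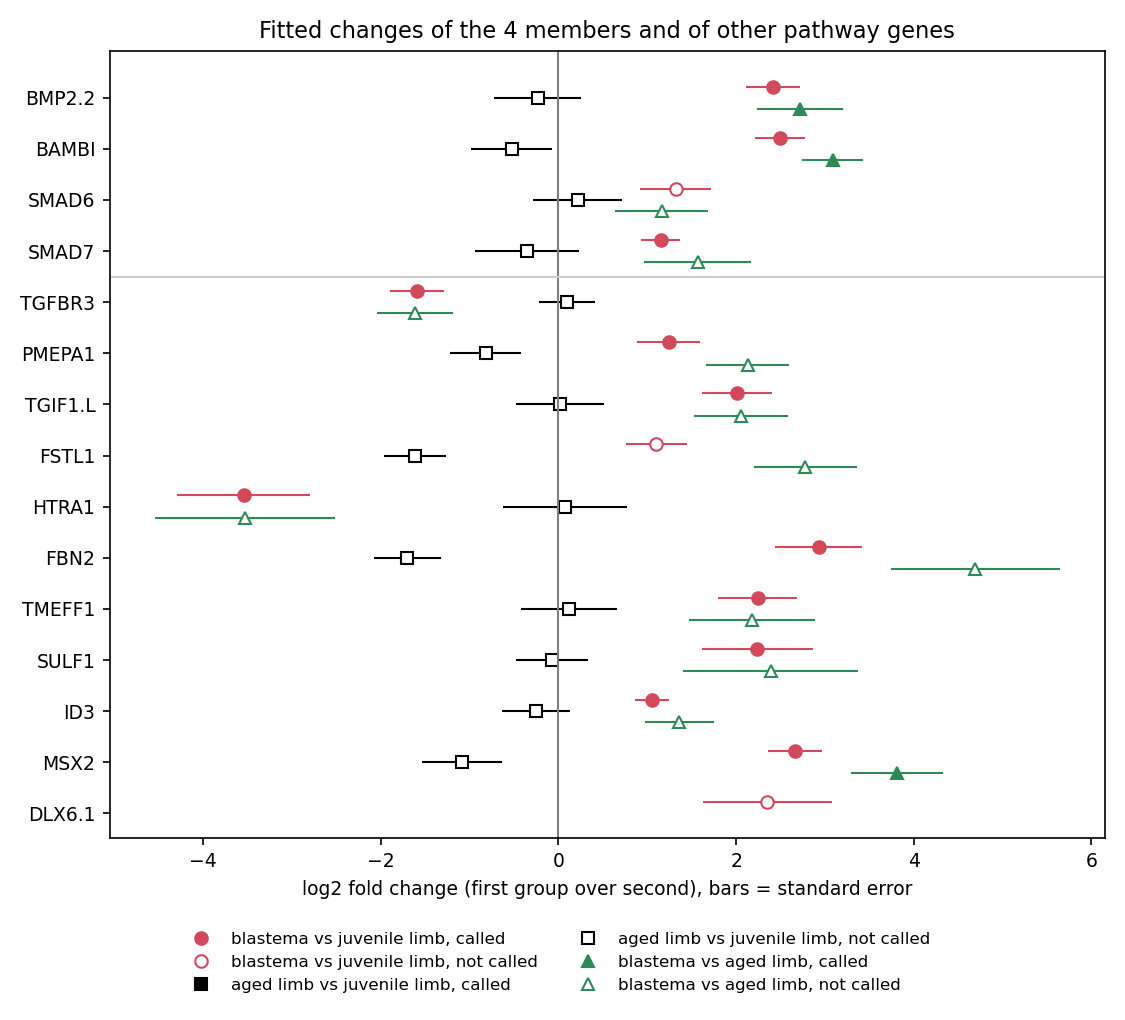
Log2 fold changes (points) with standard errors (bars) of the 4 genes, above the grey line, and of 11 other pathway genes in the 3 comparisons. Filled symbols were called, open ones were not, and genes with 3 counts or fewer in a group are left out of that comparison (MSTN and HJV are not drawn). Filled symbols appear for 3 of the 4 genes between blastemas and juvenile limbs, for BMP2.2 and BAMBI between blastemas and aged limbs, and for none between aged and juvenile limbs.

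The likeness of profiles was measured as the root mean square difference between log2 CPM over the 12 libraries, each gene centred on its own mean, among 25262 other genes. It is a description, since the libraries of a group share their tissue. The profile nearest to BAMBI was that of MSX2, at a distance of 0.42 on the log2 scale. BMP2.2 came 20th in the order of distance from BAMBI, at 0.59, and BAMBI came 30th from BMP2.2. The profiles nearest to BMP2.2 were AMEX60DD018337 at 0.30, LOC105357518.55 at 0.37 and ETV4, an ETS transcription factor known as a target of FGF signalling, at 0.42. ETV4 had a log2 fold change of 1.82 ± 0.28 (SE) between blastemas and juvenile limbs, with an adjusted p of 0.00135 in edgeR. The other neighbours of BAMBI were AMEX60DD044221 at 0.45 and AMEX60DD051288 at 0.47.

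The inhibitory SMADs lay farther from the ligand. A flat profile would lie 0.74 from SMAD6 and 0.85 from SMAD7, and BMP2.2 lay 0.71 and 0.67 from them, as the 3763rd and the 629th gene in order. In the order of distance from BMP2.2, SMAD7 came 83rd and SMAD6 124th, where a flat profile would lie at 1.18. The orders differ because the distance is not scaled for how much a gene varies. The distance between SMAD6 and SMAD7 was 0.68. BAMBI lay 1.01 from SMAD6 and 0.86 from SMAD7, which is farther than a flat profile would be from either. It was the 14982nd and the 5347th gene in their orders. From BAMBI a flat profile would lie at 1.35, so both SMADs were nearer than that, SMAD7 as the 214th and SMAD6 as the 749th gene. The profiles nearest to SMAD6 were AMEX60DD039036 at 0.35, AMEX60DD034548 at 0.36 and P4HA1.1, a collagen prolyl hydroxylase subunit, at 0.36. Those nearest to SMAD7 were AMEX60DD048459 at 0.37 and AMEX60DD035064 and AMEX60DD010001 at 0.39 each.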

How the data were processed

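Total RNA of 12 axolotl samples was depleted of ribosomal RNA and made into stranded paired-end libraries. Alignment by the authors used STAR 2.7.9a and the genome AmexG_v6.0-DD. They obtained counts on AmexT_v47 genes with featureCounts, and the deposited counts are whole numbers that were not normalized. Trimmomatic 0.39 is named in the submitters' processing notes. Strand and multiple-match settings are not given in the sources used here. The per-library counts equalled the joint table in 12 of 12 libraries.

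Each comparison was fitted on its own libraries with edgeR 4.0.16 in R 4.3.3 (TMM, filterByExpr, quasi-likelihood F test, Benjamini-Hochberg). Calls required an adjusted p under 0.05 together with an absolute log2 fold change over 1, as the study's methods set for DESeq2. A standard error is the log2 fold change divided by the square root of F. Its 95% interval was derived from it with the multiplier of a normal distribution. With so few libraries such intervals are approximate and too narrow. CPM were computed from the counts, with 0.5 added before logarithms for profiles. Intervals of ratio differences come from inverting the exact permutation test (scipy 1.17.1). The fits were tested on simulated data.

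Alternatives were DESeq2's size factors, totals without the 100 highest genes, no filter, a mean of at least 10 counts, a fit of all 12 libraries, DESeq2 1.42.0, the animal as a block, an offset of 1 count for the ratios, and leaving out each library in turn. P-values measure the spread between libraries as labelled. The main tests between blastemas and juvenile limbs treated the libraries as independent and did not use the pairing within animals. The block and the sign-flip test used it.

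The replicate numbers 2, 3, 5, 6 and 8 are shared by blastemas and juvenile limbs, which the paper says came from the same 5 animals. After subtraction of group means, libraries with the same number had a median correlation of 0.148 (0.016 to 0.202, 5 pairs). For the 20 pairs with different numbers it was -0.015 (-0.193 to 0.119), so the ranges overlapped.

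The members and lists were chosen with earlier results of these data known. Named are the 4 members, the 14 genes of the pathway list (1 further gene is not reported here) and for each member the 3 genes with the nearest profile. Gene names come from tables that pair 1585 identifiers with names, and 0 identifiers matched the RefSeq gene table.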

Additional observations from a re-analysis of the deposited data

Results flagged for a closer look

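The ratio of SMAD6 to BMP2.2 in blastema 2 stood apart from the other 4 blastemas by Dixon's criterion. Its log2 count ratio was 0.22, from 118 SMAD6 and 101 BMP2.2 counts, and the other blastemas lay between -1.32 and -1.16. Blastema 2 also had the highest SMAD6 level (11.6 CPM). Its 5 bone and cartilage markers summed to 573 CPM, of which CTSK alone made 569 CPM, and the sum was 71.7 to 154 CPM in the other blastemas. The part of CTSK in the ratio was not tested. The other 4 blastemas lay below every juvenile limb, and blastema 2 lay within the range of the limbs. Without blastema 2 the mean log2 ratio differed from that of the juvenile limbs by -1.38 (exact permutation p = 0.0159, the smallest that 4 against 5 libraries can give, adjusted p = 0.0714). In all, 14 groups of values were looked at and 1 was marked, and chance marks about 1 in 20 such groups.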

How the results depend on the processing

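Over the 4 genes and the 9 ratios, 235 alternative values kept direction and side of the threshold, 6 newly passed it, 7 lost it and 8 reversed. Ratios compared with the aged limbs could not pass it at any setting, so for them only the direction could change. The animal as a block gave BMP2.2 2.41 (adjusted p = 0.00529), BAMBI 2.57 (0.000268), SMAD6 1.33 (0.131) and SMAD7 1.17 (0.0285) with edgeR, and 1394 genes called in place of 1488. Besides PMEPA1 and SULF1 the block changed no call among the 4 genes and the pathway list. Other genes named for their nearest profiles were not read in that fit. On the ratios, an exact sign-flip permutation test within animals gave p = 0.75, 0.125 and 0.0625 (the smallest possible) for BAMBI, SMAD6 and SMAD7. For both comparisons with aged limbs, no paired analysis was possible because those limbs belong to other animals. Between blastemas and juvenile limbs SMAD6 passed without the filter (1.36, adjusted p = 0.0128) and with DESeq2 (1.33, adjusted p = 0.0241), and with single libraries left out it ranged from 1.11 to 1.57. SMAD7 was at 1.16 in the fit of all 12 libraries. Genes called rose from 1488 to 3260 without the filter and 2648 with DESeq2. There the median over all genes was -0.57 and -0.27, and every gene with a count was included. Between aged and juvenile limbs 25 genes were called, 897 without the filter, 305 with DESeq2 and 0 to 9 with single libraries left out (the 0 without aged limb 1, with 2476 genes at an unadjusted p under 0.05 in edgeR). There, leaving out single libraries gave BMP2.2 -0.79 to 0.19, SMAD6 -0.16 to 0.54 and SMAD7 -2.14 to 0.44. Between blastemas and aged limbs 351 genes were called, 1867 without the filter, 1008 in the fit of all 12 libraries, 1081 with DESeq2 and 73 to 549 with single libraries left out. SMAD7 passed without the filter (1.55, adjusted p = 0.0256). Leaving out single libraries gave BMP2.2 2.25 to 3.28, BAMBI 2.73 to 3.46 and SMAD7 0.75 to 3.36. The BAMBI ratio ranged from -0.11 to 0.51 between blastemas and juvenile limbs, negative without juvenile limb 5 (-0.11) or 8 (-0.03). Between aged and juvenile limbs it ranged from -0.49 to 0.13 (0.13 without juvenile limb 6), and the SMAD7 ratio from -1.37 to 0.21 (0.21 without aged limb 1). Between blastemas and aged limbs the SMAD7 ratio ranged from -1.45 to 0.13 (0.13 without aged limb 2). The cause of these changes was not tested. Leaving out an aged limb leaves 1, which is then assumed to vary like the other group. The lowest counts behind the values were 20 for SMAD6 and 23 for BMP2.2, both in juvenile limb 6.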
